A study of Mus musculus with 24 samples.

Results

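Levels of 10 genes that neutrophils pack into granules or release as alarm signals were followed across 3 tissues of mice with peritonitis. The genes were S100a8, S100a9, Ltf, Camp, Ngp, Mmp8, Retnlg, Slpi, Wfdc21 and Stfa2l1. They were taken by symbol from both deposited count tables, where all 10 were found among 54658 symbols. All animals were male C57BL/6 mice of 7 to 12 weeks, and every group had peritonitis, so no uninjured level is given here. Peritoneal cells were washed out of mice injected with 1 mL of thioglycollate, a sterile irritant, then cultured with 15 E. coli bacteria per cell for 6 h (6 libraries from mice given saline vehicle and 6 from mice given β-NMN). Hearts and lungs came from 3 vehicle and 3 β-NMN mice, 24 h after cecal ligation and puncture (CLP), an operation that lets gut bacteria into the abdomen, and each mouse gave both organs. β-NMN, a precursor of NAD+, was injected intraperitoneally at 185 mg/kg. Per the study's text, the thioglycollate mice had 1 injection per day for 3 days, the last 24 h before they were killed, and the mice of the 24 h CLP organs had a single administration after surgery. Cells washed from the peritoneum and whole organs are mixtures, and in such bulk RNA fewer cells of a type and less RNA per cell cannot be told apart.

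Neutrophils are short-lived white cells that leave the bone marrow and enter inflamed tissue first. While they mature in the marrow they fill successive classes of granules with antimicrobial proteins and proteases, and transcripts of many granule proteins decline before the cells are released. S100A8 and S100A9 pair to form calprotectin, an abundant cytosolic protein that binds calcium and metal ions and, once outside the cell, acts as an alarmin on receptors such as TLR4. Ltf encodes lactoferrin, an iron-binding protein of specific granules, while Camp encodes the antimicrobial cathelicidin precursor and Ngp a cystatin-related granule protein. Mmp8 is neutrophil collagenase, and Retnlg is a small secreted protein of the resistin-like family. Slpi inhibits serine proteases such as neutrophil elastase, Wfdc21 carries the same WAP type of domain, and Stfa2l1 belongs to the stefins, inhibitors of cysteine proteases. Slpi and the S100 pair are not private to neutrophils: activated macrophages and epithelial cells can make them.

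The genes lie on 5 chromosomes (positions from GENCODE M21 on GRCm38, all protein-coding). S100a8 (chromosome 3, 90668978 to 90670035, plus strand) and S100a9 (90692632 to 90695721, minus strand) are 22.6 kb apart. Camp (chromosome 9, 109847379 to 109849617), Ngp (110419747 to 110423012) and Ltf (111019271 to 111042767) share a stretch of 1.2 Mb, and Mmp8 (7558456 to 7568485) sits elsewhere on chromosome 9. Retnlg (48872621 to 48874496) and Stfa2l1 (36156811 to 36161953) are on chromosome 16, Wfdc21 is on chromosome 11 (83746940 to 83752642) and Slpi is on chromosome 2 (164354070 to 164389095). The exons of Slpi overlap those of the microRNA gene Mir7678 on the same strand, and no other gene overlapped an exon of the 10. No source used here says if strand was used in counting.

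Promoter sequences of 6 of the genes are shown because these genes took different directions in peritoneal cells, as described further on: S100a8, S100a9, Ltf and Slpi fell, Mmp8 did not pass the test and Retnlg rose. They are from RefSeq on GRCm38.p6, read 5′ to 3′ along the gene's strand, and end at the RefSeq start or, for S100a8 and Ltf, where the first GENCODE exon begins. Capitals mark matches on either strand to the letters TTNNGCAA, which resemble the binding site of C/EBP factors, and GGAAGT, which resemble that of PU.1 and other ETS factors.

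S100a8 promoter (chr3:90668821-90668977, plus strand): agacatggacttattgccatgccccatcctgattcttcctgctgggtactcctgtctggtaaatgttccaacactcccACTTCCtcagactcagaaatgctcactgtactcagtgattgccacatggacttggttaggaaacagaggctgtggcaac
S100a9 promoter (chr3:90695722-90695971, minus strand): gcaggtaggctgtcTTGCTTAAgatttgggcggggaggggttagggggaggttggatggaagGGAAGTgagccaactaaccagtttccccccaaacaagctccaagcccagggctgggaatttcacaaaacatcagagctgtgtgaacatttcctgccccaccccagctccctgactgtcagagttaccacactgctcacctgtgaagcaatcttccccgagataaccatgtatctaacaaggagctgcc
Ltf promoter (chr9:111019042-111019270, plus strand): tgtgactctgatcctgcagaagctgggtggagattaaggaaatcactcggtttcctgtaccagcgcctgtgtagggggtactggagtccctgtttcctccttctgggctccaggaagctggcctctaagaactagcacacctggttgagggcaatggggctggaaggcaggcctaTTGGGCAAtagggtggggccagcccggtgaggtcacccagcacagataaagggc
Slpi promoter (chr2:164356508-164356757, minus strand): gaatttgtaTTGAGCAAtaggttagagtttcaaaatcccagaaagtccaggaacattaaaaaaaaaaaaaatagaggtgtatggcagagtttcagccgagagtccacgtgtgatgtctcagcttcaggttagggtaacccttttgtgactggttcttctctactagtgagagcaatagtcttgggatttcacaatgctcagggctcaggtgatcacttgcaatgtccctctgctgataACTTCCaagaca
Mmp8 promoter (chr9:7558179-7558428, plus strand): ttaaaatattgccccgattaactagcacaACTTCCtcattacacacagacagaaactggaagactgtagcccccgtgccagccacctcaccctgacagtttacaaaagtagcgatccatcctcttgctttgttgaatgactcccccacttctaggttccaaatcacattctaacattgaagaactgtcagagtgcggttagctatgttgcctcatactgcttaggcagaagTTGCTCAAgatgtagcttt
Retnlg promoter (chr16:48872358-48872607, plus strand): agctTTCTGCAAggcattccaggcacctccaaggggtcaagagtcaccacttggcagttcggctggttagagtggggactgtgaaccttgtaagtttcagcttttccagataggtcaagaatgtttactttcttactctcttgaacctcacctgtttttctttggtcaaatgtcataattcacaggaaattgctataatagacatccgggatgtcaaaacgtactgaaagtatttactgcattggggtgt

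The promoter table held 9 of the 10 genes, Wfdc21 being the one without an entry. Within the 250 bases before the RefSeq start, TTNNGCAA was present in 6 of the 9 (Slpi, S100a9, Mmp8, Ngp, Ltf and Retnlg) and in 9.56% of all 32851 promoters. GGAAGT was present in 5 of the 9 (Slpi, S100a8, S100a9, Mmp8 and Stfa2l1) and in 19.7% of all promoters. The letters TATAAA were found only upstream of S100a8, 30 bases before its start, against 12.4% of all promoters, and the NF-kappaB motif was found in 0 of the 9 and in 3.9% of all. The 6 genes with TTNNGCAA included 3 that fell in peritoneal cells, 1 that rose, 1 that did not pass the test and 1, Ngp, that was not tested there. These matches describe letters in a window and say nothing about binding.

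Total counts per library ranged from 31126823 to 112456050 in peritoneal cells, from 27319513 to 68523239 in hearts and from 8915366 to 28356786 in lungs, where the lowest belonged to vehicle replicate 2. Levels are given as CPM, read counts relative to the TMM-scaled total of their library, and changes as log2 fold changes of β-NMN over vehicle. A gene is called changed when edgeR's quasi-likelihood test gives a Benjamini-Hochberg adjusted p below 0.05 over all genes tested. Both libraries of vehicle replicate 2 of the CLP mice stood apart from the rest: the SD across genes of the log2 difference from the mean of the other libraries was 0.990 for its heart and 1.57 for its lung, against at most 0.577 and 0.602 for the others. Macrophage markers were abundant in peritoneal cells (Adgre1, which encodes F4/80, had 563 ± 49.4 CPM in vehicle and 647 ± 43.0 in β-NMN libraries; SD, n = 6 each), whereas Ly6g, the defining surface marker of mouse neutrophils, had 1.05 ± 0.400 CPM in vehicle libraries.

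In peritoneal cells, 6 of the 10 genes were lower with β-NMN and 1, Retnlg, was higher. Mmp8 did not pass the test, and the counts of Camp and Ngp were too low to be tested. Over all genes tested, 51.6% were called in either direction, 27.9% lower and 23.7% higher, so that 7 calls among 8 tested genes stand beside a background in which calls were common. The 6 that fell also showed no overlap between the 6 vehicle and 6 β-NMN libraries, which was the case in the lower direction for 14% of all genes tested. For each of these 6 the exact two-sided permutation test gave p = 0.00216, the smallest that 924 divisions of the libraries allow, and p = 0.00361 after Benjamini-Hochberg adjustment over the 10 genes. Groups that do not overlap must give this smallest value, so it adds nothing to the lack of overlap. The adjustment does not cover the choice of the 10 genes, which was made with earlier results of these data known. The median log2 change of the 8 tested genes was −4.24, against −0.02 for all genes.

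**Figure D1:**
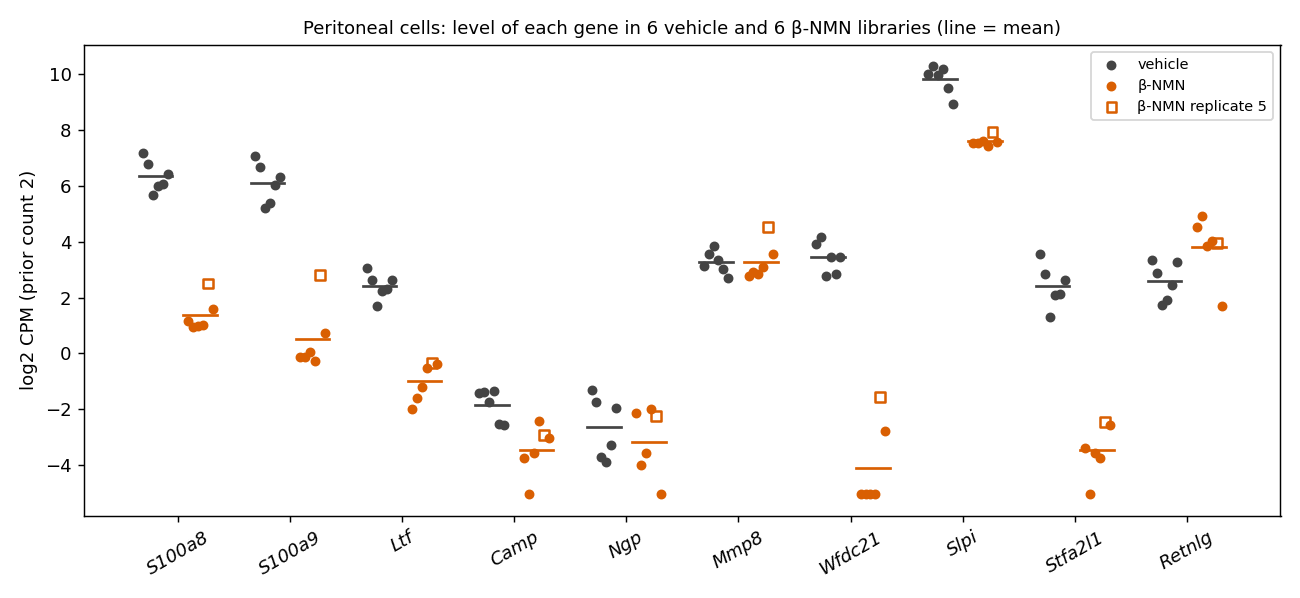
Level of each gene in peritoneal cells as log2 CPM with a prior count of 2 (vertical axis), one point per library, vehicle in grey and β-NMN in orange, with lines at the group means of log2 CPM and β-NMN replicate 5 as an open square. The groups are apart for S100a8, S100a9, Ltf, Wfdc21, Slpi and Stfa2l1 and overlap for Camp, Ngp, Mmp8 and Retnlg.

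The alarmin pair fell by the same order of size. S100a8 ranged from 50.8 to 146 CPM in vehicle libraries (median 77.2) and from 1.89 to 5.64 CPM in β-NMN libraries (median 2.09). Its level was 31.9-fold lower in the fit, a log2 change of −5.00 (standard error 0.34) with an adjusted p of 5.21e-08 by edgeR's quasi-likelihood test. S100a9 ranged from 36.6 to 135 CPM in vehicle libraries (median 73.2) and from 0.804 to 6.91 CPM in β-NMN libraries (median 0.950), with a log2 change of −5.31 (standard error 0.58) and an adjusted p of 3.81e-06. Vehicle replicate 1 held the highest value of both genes and β-NMN replicate 5 the highest of both in its group. Without β-NMN replicate 5 the log2 change of S100a9 was −6.20. The level of S100a8 per kilobase divided by that of S100a9 was 0.771 to 1.16 in vehicle libraries (median 0.814) and 0.613 to 1.88 in β-NMN libraries (median 1.54). The ranges overlapped through β-NMN replicate 5 alone, the other 5 β-NMN libraries being at 1.38 to 1.88.

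Among the granule proteins, Ltf ranged from 3.23 to 8.23 CPM in vehicle libraries (median 5.57) and from 0.220 to 0.765 CPM in β-NMN libraries (median 0.534). Its log2 change was −3.49 (standard error 0.32), with an adjusted p of 7.35e-07. Camp and Ngp, which belong to the same granules, were close to absent in both groups. The 6 vehicle libraries together held 110 reads of Camp and the 6 β-NMN libraries 21, with levels of 0.137 to 0.364 and 0 to 0.156 CPM, and an exact two-sided permutation test gave p = 0.00649 (0.00928 adjusted over the 10 genes). Ngp had 62 and 40 reads in the groups, with an exact permutation p of 0.450.

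Mmp8 stood at 9.91 ± 2.82 CPM in vehicle libraries and 10.8 ± 6.29 CPM in β-NMN libraries (SD, n = 6 each). The vehicle libraries spanned 6.40 to 14.4 CPM and the β-NMN libraries 6.77 to 23.1 CPM, with medians of 9.48 and 7.98, so that mean and median differed in direction. The log2 change was 0.12 (standard error 0.29; adjusted p 0.757), and it was −0.23 without β-NMN replicate 5, the library at 23.1 CPM.

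Retnlg went the opposite way from most of the genes. It ranged from 3.33 to 10.1 CPM in vehicle libraries (median 6.36) and from 3.21 to 30.1 CPM in β-NMN libraries (median 15.9). In 5 of the 6 β-NMN libraries it was above every vehicle library, while β-NMN replicate 6, at 3.21 CPM, was below all of them. The log2 change was 1.38 (standard error 0.40; adjusted p 0.0097 by edgeR's quasi-likelihood test), and the exact permutation test gave p = 0.0541. Among the 5 deeper libraries (3 vehicle and 2 β-NMN, each above 80000000 counts) the log2 change was 2.14 with an adjusted p of 0.00617, and among the 7 shallower ones (3 and 4) it was 0.87 with an adjusted p of 0.233, a split made after the data were seen.

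The protease inhibitors fell as well, from very different levels. Slpi was the most abundant of the 10 genes, at 489 to 1255 CPM in vehicle libraries (median 1022) and 171 to 242 CPM in β-NMN libraries (median 187). Its log2 change was −2.28 (standard error 0.19; adjusted p 3.83e-07). Wfdc21 had 6.88 to 18.1 CPM in vehicle libraries (median 10.9), whereas in 4 of the 6 β-NMN libraries no read was counted, which allows levels up to 0.0330, 0.0329, 0.0797 and 0.0670 CPM in those libraries (3 counts each). The other 2 had 0.306 CPM (replicate 5) and 0.116 CPM (replicate 6). All 6 β-NMN libraries held 17 reads of Wfdc21 against 4783 in the vehicle libraries, and the fitted log2 change was −7.73 (standard error 0.63; adjusted p 2.79e-07), or −9.25 without replicate 5. Stfa2l1 had 2.44 to 11.8 CPM in vehicle libraries (median 5.28) and 0 to 0.153 CPM in β-NMN libraries (median 0.0595), 2405 reads against 22, with a log2 change of −6.45 (standard error 0.53; adjusted p 2.79e-07). These limits and counts cover counting error only.

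The 6 falls were called within both depth classes. The log2 change of S100a8 was −5.08 among the deeper and −5.00 among the shallower libraries, that of S100a9 was −6.08 and −5.11, and that of Slpi was −2.01 and −2.44. Ltf had −4.28 and −3.15, and Stfa2l1 had −7.11 and −6.11. For Wfdc21, both deep β-NMN libraries had no read, and the log2 change among the shallower libraries was −6.94.

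Per length, the genes took another order with β-NMN. In vehicle libraries the RPKM, which is the CPM divided by the exon length in kilobases, averaged 801 for Slpi, 147 for S100a9, 126 for S100a8, 26.5 for Wfdc21, 14.4 for Stfa2l1, 11.1 for Retnlg, 4.09 for Mmp8, 1.62 for Ltf, 0.353 for Camp and 0.140 for Ngp. Neighbours in this order whose library ranges did not overlap were Slpi and S100a9, S100a8 and Wfdc21, Mmp8 and Ltf, and Ltf and Camp. In β-NMN libraries Slpi was first at 165 RPKM, followed by Retnlg at 28.7 and Mmp8 at 4.44, and S100a8 and S100a9 averaged 4.00 and 3.87 RPKM. The 5 others were below 1 RPKM.

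Genes of the same pathways were read from fixed lists. Over all genes tested, 27.9% were called lower and 23.7% higher. Of 8 other specific and gelatinase granule genes, 6 were lower and 0 higher, among them Lcn2, the siderophore-binding lipocalin (401 ± 70.3 CPM in vehicle and 17.2 ± 8.14 in β-NMN libraries; log2 change −4.55), the granule glycoprotein Olfm4 (−4.58), haptoglobin Hp (−4.92) and the surface protein Cd177 (−1.63). The 2 that did not pass, named after their values were seen, were the peptidoglycan-binding protein Pglyrp1 (−0.25) and the chitinase-like Chil3 (0.04). Azurophil granule genes were scarce: proteinase 3, Prtn3, was lower (−2.14), Mpo (0.54) and Ctsg (−0.08) did not pass, and Elane was not tested. Of 13 stefins and cystatins 7 were tested, with 4 lower, including the stefin-cluster genes Gm5483 (−5.74), 2010005H15Rik (−3.07) and Gm5416 (−4.66), and 2 higher, including the cystatin Cst7 (1.06). Because stefin genes are near-copies of each other, their reads may have been divided among them. For each of the 10 genes described here, including Stfa2l1, 0% of 100-base windows of exon sequence were shared exactly with another gene. Of the WAP domain and serpin list, Serpinb1a, an inhibitor of neutrophil proteases, was lower (−0.92), and Wfdc17 (169 CPM in vehicle and 168 CPM in β-NMN libraries) and Wfdc18 (log2 change −0.44) did not pass. Among resistin-like genes, Retnla was higher (log2 change 2.39; means of 3.33 CPM in vehicle and 17.2 CPM in β-NMN libraries, n = 6 each), which is the direction of Retnlg, and Retn did not pass (−0.76). The azurophil, WAP domain and serpin, and resistin-like counts, and the 2 stefins and cystatins that rose, rest on few genes. Beside the shares of all genes they are no result about those lists.

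Of 14 other S100 genes 6 were tested, with 0 lower and 2 higher, S100a10 (0.84) and S100a1 (0.99). S100a11 (0.26) and S100a6 (−0.05), each above 100 CPM in both groups, did not pass. The number called rose to 4 without vehicle replicate 1 or β-NMN replicate 4. Among receptors and co-receptors for alarmins and bacterial products, 3 of 9 were lower, the formyl peptide receptor Fpr2 (−3.66), the lipopolysaccharide co-receptor Cd14 (−2.92; 2693 ± 1387 CPM in vehicle and 355 ± 48.8 in β-NMN libraries) and Ager (−1.63), and the scavenger receptor Cd36 was higher (1.12). These counts of S100 genes and receptors are close to the shares of all genes called, 23.7% higher and 27.9% lower, and are no result about either list. Of the 6 factors of granulocyte development, 4 were lower, Cebpb (−1.40), Gfi1 (−1.08), Cebpa (−0.76) and Cebpd (−0.68), and 0 were higher, beside the same shares of all genes. The other 2, Cebpe and Spi1, did not pass, 1 with a lower and 1 with a higher fitted level.

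**Figure D2:**
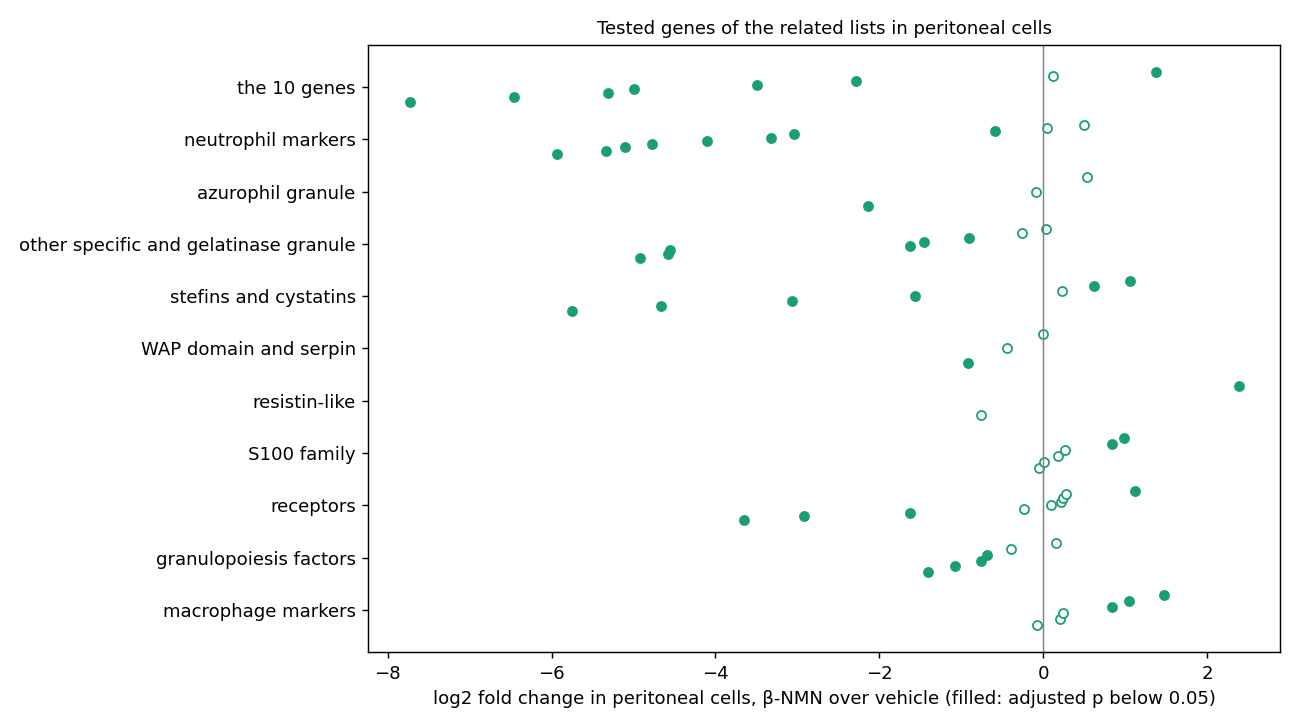
Fitted log2 fold change in peritoneal cells, β-NMN over vehicle (horizontal axis), of each tested gene of the 10 and of related lists (rows), filled where the adjusted p was below 0.05. Called genes of the neutrophil marker and granule lists are all below 0, and the called macrophage markers are all above 0.

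Markers of cell types changed in both directions. Over all genes tested, 27.9% were called lower and 23.7% higher. Of 10 neutrophil markers, 8 were lower and 0 higher, among them the formyl peptide receptor Fpr1 (log2 change −5.93), Mrgpra2a (−5.10), Mrgpra2b (−5.33) and the chemokine receptor Cxcr2 (−4.10). The 2 that did not pass both had higher fitted levels, 1 of them Padi4 (0.50), named after its value was seen. The summed level of the 10 markers was 541 to 1000 CPM in vehicle and 478 to 532 CPM in β-NMN libraries, of which Csf3r made up most, and Ly6g was at 0.582 to 1.57 and 0 to 0.134 CPM. Of 6 macrophage markers, 3 were higher, Cd68 (0.84), Mrc1 (1.05) and Mertk (1.48), and 0 lower, with sums of 1975 to 2683 and 3347 to 3949 CPM. Without vehicle replicate 3, 5 of the 6 were called. The monocyte markers Ccr2 (−1.83) and Ly6c2 (−1.68) were lower and F13a1 (−0.35) did not pass, and all 4 T cell markers were lower (−1.76 to −1.09). Of 4 B cell markers, 2 were lower, Cd79b (−1.58) and Ms4a1 (−0.80), and 0 higher, with 1 called when vehicle replicate 6, β-NMN replicate 3 or β-NMN replicate 5 was left out. Of 3 eosinophil markers tested, 1 was higher, Ccr3 (1.47), and 2 did not pass, 1 of them with a lower fitted level. Of 2 platelet markers tested, 1 was higher, Pf4 (0.64), and 1 did not pass. The counts of B cell, eosinophil and platelet markers rest on few genes and are no result about those lists. Of 4 mast cell markers, 0 were called. The 5 red cell markers were higher (2.48 to 2.77), with sums of 2.91 to 38.8 and 52.5 to 133 CPM. The part of these markers in the changes of the 10 genes was not tested.

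Profiles over the 12 peritoneal libraries were compared by the mean absolute difference of centred log2 CPM, among 6971 tested genes of at least 8 CPM other than the 10. Closest to S100a8 were Gm37691 (0.36), the inhibitory receptor Siglece (0.38), the cystine transporter Slc7a11 (0.39), Cldn1 (0.39) and the iron exporter Slc40a1 (0.39), and S100a9 itself stood at 0.46. Closest to Slpi were Htra4 (0.16), Arl5c (0.20), Mapk8 (0.20), Tmco6 (0.21) and Tlr13 (0.21). These are descriptions, and the libraries share their 2 groups.

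In hearts after CLP, transcripts of the 10 genes were scarce. All 9 genes tested had lower fitted levels with β-NMN, with a median log2 change of −0.89 against −0.01 for all genes, but edgeR's quasi-likelihood test called 0 of the 9, as it called 0% of 16245 genes. At an unadjusted p below 0.05 there were 6 of the 9, against 11.3% of all genes. DESeq2 called 1, Ngp, with an adjusted p of 0.0176, where it called 1.89% of the 15178 genes to which it gave an adjusted p (287 genes), and limma-voom called 0 of the 9. The groups did not overlap, in the lower direction, for 5 genes (S100a8, S100a9, Ngp, Camp and Mmp8), beside 11.5% of all genes tested. The exact permutation test of 3 hearts against 3 cannot give a p below 0.1. It gave that value for each of these 5, as it must for groups that do not overlap.

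S100a8 measured 5.49, 5.76 and 10.5 CPM in vehicle hearts 1 to 3 and 4.06, 4.03 and 4.22 CPM in β-NMN hearts 1 to 3. The fitted log2 change was −0.82 (standard error 0.28; adjusted p 0.435). S100a9 had the same value of −0.82 (standard error 0.38; adjusted p 0.442), from 5.06, 5.51 and 13.2 CPM in vehicle and 4.06, 4.58 and 4.74 CPM in β-NMN hearts. Vehicle replicate 3 was the highest heart for both genes, and without it the log2 change was −0.45 for S100a8 and −0.24 for S100a9.

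Ngp had the smallest p of the 10 genes in hearts, with 4.07, 4.57 and 5.85 CPM in vehicle and 1.82, 1.44 and 2.79 CPM in β-NMN hearts. Its log2 change was −1.25 (standard error 0.30; unadjusted p 0.00451, adjusted p 0.435 by edgeR). The spread within each group was smaller than the gap between the group means of 4.83 and 2.02 CPM. Camp rested on 65 reads in vehicle and 23 in β-NMN hearts, with a log2 change of −1.47 that became −0.80 without vehicle replicate 2. Mmp8 measured 2.07, 2.50 and 2.91 CPM in vehicle and 1.45, 0.998 and 1.60 CPM in β-NMN hearts, a log2 change of −0.89. Retnlg (log2 change −1.32), Ltf (−0.41) and Wfdc21 (−0.59) overlapped between groups. With limma-voom the log2 change of Retnlg was −0.61. Leaving out 1 heart moved Ltf to between −0.69 (without β-NMN replicate 3) and −0.11 (without vehicle replicate 3), with −0.13 without β-NMN replicate 2 and −0.67 without vehicle replicate 2. Wfdc21 was −1.64 without β-NMN replicate 1, and −0.19, −0.27 and −0.23 without β-NMN replicates 2 and 3 and vehicle replicate 1. Stfa2l1, with 9 and 3 reads, was not tested. The adjusted p of all 9 tested genes were between 0.435 and 0.673.

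Slpi in hearts was decided by 1 library. It measured 0.492, 12.8 and 0.640 CPM in vehicle hearts 1 to 3 and 0.559, 0.647 and 0.248 CPM in β-NMN hearts. The fitted log2 change of −3.28 became −0.24 (adjusted p 0.902) without vehicle replicate 2. The same heart had the highest summed mast cell markers (5.98 CPM against 0.574 to 1.75 in the others) and B cell markers (4.83 CPM against 0.446 to 1.61), while airway secretory markers were below 1 CPM in every heart. The part of these cells in its Slpi level was not tested.

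The summed level of the neutrophil markers in hearts was 17.9 to 19.4 CPM in vehicle and 11.3 to 13.7 CPM in β-NMN hearts, 5 of the 10 markers were tested, and 0 were called. Macrophage markers, 158 to 167 CPM in vehicle and 121 to 153 CPM in β-NMN hearts, and platelet markers, 13.2 to 29.4 and 7.30 to 12.6 CPM, did not overlap either, with 0 genes called in both lists. Cardiomyocyte markers went the other way, with sums of 27800 to 45179 CPM in vehicle and 47957 to 52178 CPM in β-NMN hearts and a median log2 change of 0.36, and 0 of the 4 were called. Ly6g, Cxcr1, Mrgpra2a, Mrgpra2b and Itgb2l were too low to test. The part of these markers was not tested. In the list of other specific and gelatinase granule genes all 7 tested had lower fitted levels in β-NMN hearts, with 0 called.

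In lungs after CLP the same transcripts were abundant and their fitted changes took both directions. Of the 10 genes, 7 had lower and 3 higher fitted levels with β-NMN, with a median log2 change of −0.06 against 0.00 for all genes. EdgeR's quasi-likelihood test called 0 of the 10 and 0% of 17008 genes. Only Ltf had an unadjusted p below 0.05, which 1.77% of all genes had, and DESeq2 and limma-voom called 0 of the 10. The groups overlapped for all 10 genes, whereas they did not overlap for 8.21% of all genes.

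S100a8 measured 940, 560 and 1173 CPM in vehicle lungs 1 to 3 and 801, 750 and 1255 CPM in β-NMN lungs 1 to 3. The group means of 891 ± 309 and 935 ± 278 CPM (SD, n = 3 each) differed by less than the spread within groups, with a log2 change of 0.07 (standard error 0.38) that became −0.17 without vehicle replicate 2. S100a9 measured 634, 662 and 948 CPM in vehicle and 734, 555 and 868 CPM in β-NMN lungs (log2 change −0.06, standard error 0.31).

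Of the other granule proteins in lungs, Ltf measured 140, 308 and 247 CPM in vehicle and 144, 75.1 and 81.4 CPM in β-NMN lungs, a log2 change of −1.21 (standard error 0.40; unadjusted p 0.0195, adjusted p 0.969). Vehicle replicate 1 lay within the β-NMN range. Camp measured 30.2, 87.1 and 41.1 CPM in vehicle and 28.9, 9.32 and 38.7 CPM in β-NMN lungs (−1.04, standard error 0.59), which became −0.47 when vehicle replicate 2 was left out and −0.63 when β-NMN replicate 2 was. With limma-voom the log2 change of Camp was −0.27. Ngp, of the same granules, measured 153, 79.7 and 330.0 CPM in vehicle and 155, 90.7 and 193 CPM in β-NMN lungs (−0.36, standard error 0.54). The library of vehicle replicate 2 was the highest for Ltf and Camp and the lowest for Ngp.

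The remaining genes showed wide and overlapping ranges. Slpi measured 62.3, 79.5 and 73.2 CPM in vehicle and 145, 31.2 and 93.2 CPM in β-NMN lungs (log2 change 0.33, standard error 0.51), the β-NMN lungs enclosing the vehicle lungs. Mmp8 had a log2 change of 0.28, Retnlg of −0.05, Wfdc21 of −0.0009 and Stfa2l1 of −0.63, with standard errors of 0.29 to 0.50. Stfa2l1 became −0.21 when vehicle replicate 3 was left out, −0.32 when β-NMN replicate 2 was and −0.92 when β-NMN replicate 3 was. Neutrophil markers summed to 78.8, 34.0 and 170 CPM in vehicle and 81.9, 115 and 103 CPM in β-NMN lungs. The highest sum and the highest Ngp, Mmp8, Wfdc21 and Stfa2l1 of the vehicle lungs were in the same library, replicate 3, and the part of these markers was not tested.

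**Figure D3:**
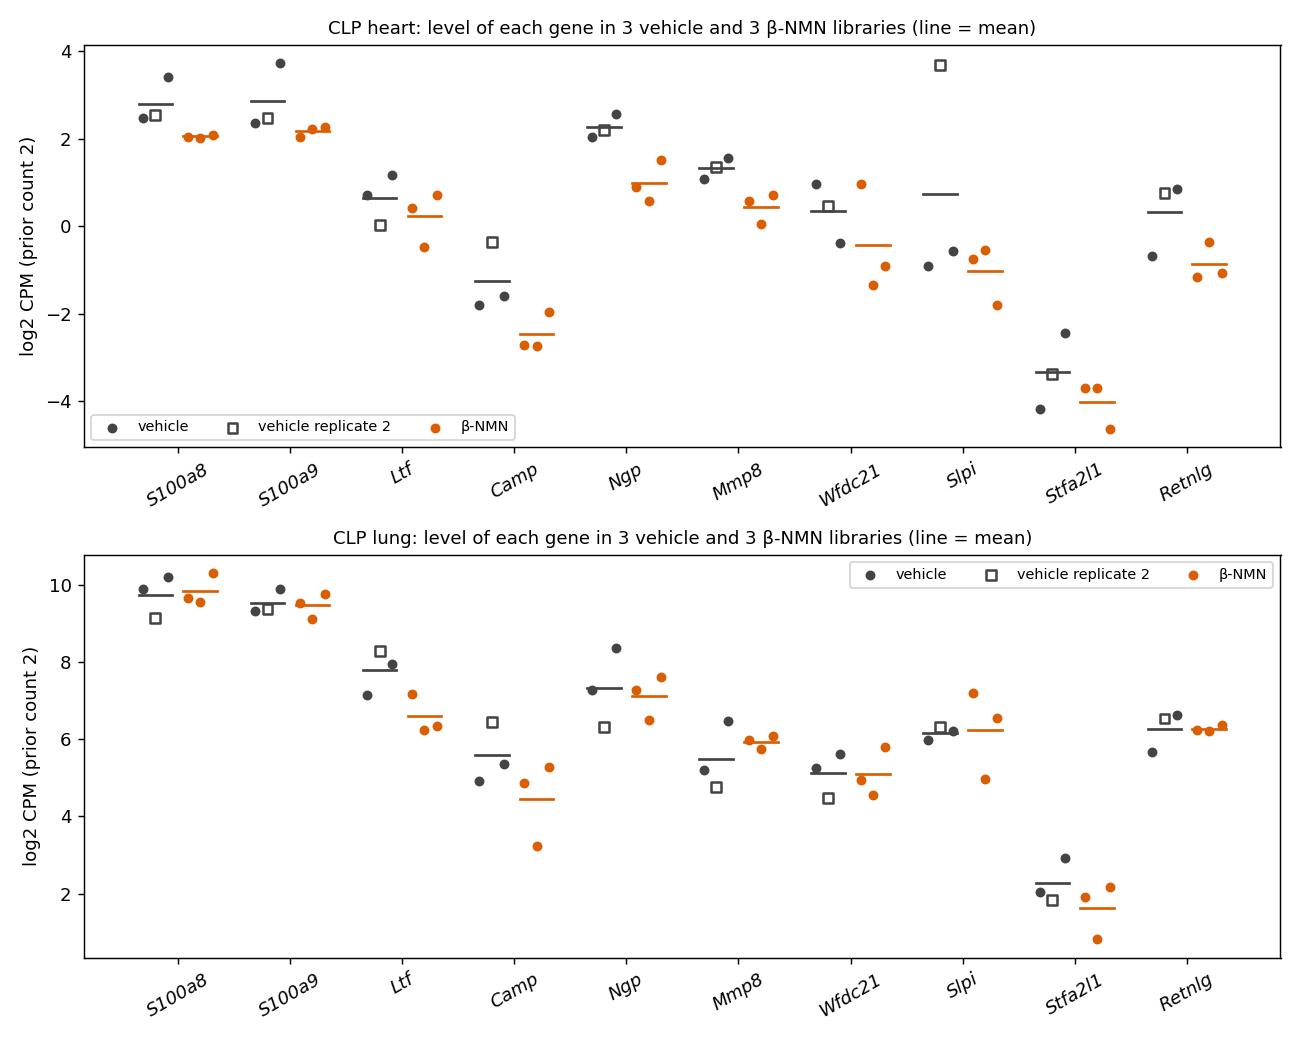
Level of each gene in CLP hearts (top) and lungs (bottom) as log2 CPM with a prior count of 2, scaled within each organ, one point per library, with lines at the group means of log2 CPM and vehicle replicate 2 as an open square. In hearts the groups are apart for S100a8, S100a9, Camp, Ngp and Mmp8, and in lungs the groups overlap for every gene.

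Fitted together, all 10 genes were higher in lung than in heart, where 35.9% of 18318 genes tested were higher in lung and 64.8% were called in either direction. This fit had no term for the mouse, although each mouse gave both organs. With the mouse as a block all 10 were called as well. S100a8 then had a log2 difference of 6.69 (adjusted p 1.73e-06 by edgeR's quasi-likelihood test). The lung level exceeded the heart level in 6 of 6 mice for every gene. On the scale of all 12 CLP libraries, S100a8 averaged 7.18 ± 3.13 CPM in hearts and 728 ± 231 CPM in lungs (SD, n = 6 each), a log2 difference of 6.72 (standard error 0.32; adjusted p 1.29e-08). Camp (6.46), S100a9 (6.27), Ltf (6.10), Stfa2l1 (5.96) and Retnlg (5.86) followed, and Ngp (5.07), Wfdc21 (4.42) and Mmp8 (4.26) differed less. Slpi had a difference of 5.07 (standard error 0.81), or 6.48 without both libraries of vehicle replicate 2. Of the 8 other specific and gelatinase granule genes, 6 were higher in lung, up to a log2 difference of 7.70 for Chil3, 1 was lower (Lrg1, −2.53), and Lcn2 did not pass (0.44, adjusted p 0.326). Of the 10 neutrophil markers 8 were tested, of which 7 were higher in lung, Cxcr2 by 4.46, and Fpr1 did not pass (0.61, adjusted p 0.165).

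The top and the bottom of the order of levels per length were the same in vehicle lungs and vehicle hearts. In vehicle lungs S100a9 and S100a8 were first with 1433 and 1284 RPKM, ahead of Ngp at 154 and Retnlg at 135, and Stfa2l1 was last at 11.9. In vehicle hearts S100a9 and S100a8 were first as well, at 15.2 and 10.5 RPKM with overlapping ranges, followed by Ngp at 3.95. Stfa2l1 was last there too, at 0.173 RPKM. Slpi had rank 4 in vehicle hearts, where it ranged from 0.417 to 10.9 RPKM, the highest value being that of vehicle replicate 2. Slpi, first in peritoneal cells, was eighth of the 10 in vehicle lungs at 60.7 RPKM. The tables of peritoneal cells and of organs were made separately, so that levels across them are set side by side without a test.

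A difference between heart and lung in the change with β-NMN was not detected. The interaction test of edgeR called 0 of the 10 genes and 0% of 18318 genes, 2 of the 10 (Slpi and Retnlg) had an unadjusted p below 0.05 where 4.35% of all genes did, and DESeq2 called 0 of the 10. Retnlg had a difference of 1.26 (standard error 0.55) between its log2 changes in lung and heart. For Slpi the difference was 3.61 (standard error 1.44), and 0.63 without both libraries of vehicle replicate 2. These fits had no term for the mouse. With the mouse as a block the differences were 1.82 (standard error 1.44) for Slpi, 1.23 (0.38) for Retnlg and 1.37 (0.43) for Mmp8. The interaction test then called 0 of the 10.

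**Figure D4:**
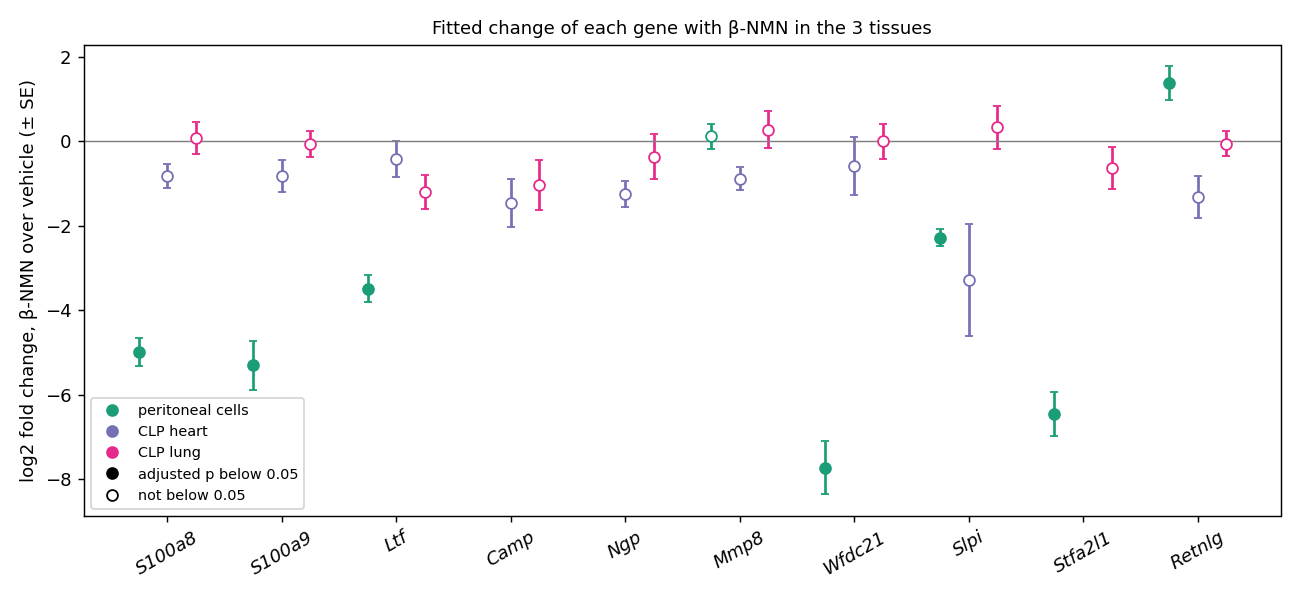
Fitted log2 fold change of β-NMN over vehicle (vertical axis) with its standard error for each gene in peritoneal cells (green), CLP heart (purple) and CLP lung (pink), filled where the adjusted p was below 0.05. Filled points are found in peritoneal cells only, with 6 below 0 and Retnlg above, and each gene is missing where it was not tested.

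Over the 12 CLP libraries, the profile of S100a9 stood at 0.25 from that of S100a8, and the closest among 10331 genes other than the 10 belonged to Slc44a3 (0.29), Bspry (0.32), Plekhd1 (0.37), the transcription factor Sox2 (0.41) and Rasgef1a (0.41). Closest to Slpi were Rab11fip1 (0.53), Alcam (0.60), the epithelial keratin Krt18 (0.61), the prostaglandin-degrading enzyme Hpgd (0.61) and Bex4 (0.63). All these profiles are dominated by the difference between lung and heart.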

How the data were processed

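RNA of 24 libraries was analysed from deposited tables of read counts per gene symbol, one table for peritoneal cells and one for CLP hearts and lungs. The authors made these counts from reads aligned to mm10 with STAR and counted with featureCounts (2.7.3a and 2.0.0 in the submitters' processing notes), without normalization. For annotation and strand, nothing is stated in the sources used here. Source labels of the organs name thioglycollate peritonitis, whereas titles, tissue labels and the study's methods give CLP. Of the β-NMN hearts, 2 carry number 3 in the labels, and the mouse whose lung has number 2 was used as replicate 2. Where nothing more is said of the origin of samples, p-values measure the spread between these samples only.

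Every tissue had its own fit in edgeR 4.0.16 (R 4.3.3), with filterByExpr, TMM, the legacy quasi-likelihood F-test and Benjamini-Hochberg adjustment over all genes tested. Organs were compared, and the interaction tested, over the 12 CLP libraries without a term for the mouse. For these 2 comparisons the replicate block named below was the mouse. CPM used TMM-scaled totals, log2 CPM a prior count of 2, and RPKM the union of GENCODE M21 exons. Single genes had exact two-sided permutation tests. Alternatives were DESeq2 1.42.0, its size factors, no low-count filter, the newer quasi-likelihood form, limma-voom (limma 3.58.1), both organs in one fit, a replicate block and leaving out each library. Depth classes split at 80000000 counts, and leaving out the mouse of vehicle replicate 2, were added after the data were seen. In simulated counts with a planted log2 change of 2 in 200 genes, edgeR recovered 88.5% in peritoneal cells (14985 genes), 68% in hearts (16245) and 18.5% in lungs (17008). The genes and lists were chosen with earlier results of these data known. Named were all 10 genes, up to 4 genes of each list (called genes by smallest p, then by level) and the 5 nearest profiles. Beyond this rule, Pglyrp1, Chil3, Lrg1, Padi4, Csf3r, Ly6g, Adgre1, Cxcr1, Itgb2l, Cebpe and Spi1, and the list genes named for lung against heart, were named after their values were seen. Heart and lung numbers mark the same mouse. Across treatments the same number did not pair libraries (correlations of −0.17 to 0.13 in peritoneal cells, 0.07 to 0.24 in hearts and −0.52 to 0.30 in lungs).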

Additional observations from a re-analysis of the deposited data

Results flagged for a closer look

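In peritoneal cells, 4 of the 10 genes had a β-NMN library that lay apart from the other 5 by Dixon's criterion at 95%, and it was replicate 5 each time. S100a8 was 5.64 CPM in that library and 1.886 to 2.978 CPM in the others. S100a9 was 6.91 CPM against 0.8045 to 1.629 CPM. Mmp8 was 23.1 CPM against 6.767 to 11.82 CPM, and Slpi was 242 CPM against 170.7 to 192.7 CPM. In all, 20 groups were examined, and chance flags about 1 in 20. S100a8, S100a9 and Slpi in replicate 5 were still below every vehicle library. Of the 10 neutrophil markers, 5 were highest in this library among the β-NMN group: Fpr1 (2.88 CPM), Mrgpra2b (1.07 CPM), Mrgpra2a (0.663 CPM), Cxcr1 (0.433 CPM) and Itgb2l (0.306 CPM). The other 5 were not, and its Ly6g count was 0. The part of these markers in its levels was not tested.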

How the results depend on the processing

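The number of the 10 genes called in peritoneal cells was 7 in each of the 12 fits that left out 1 library, 6 among the shallower libraries (without Retnlg, log2 change 0.87), 8 with DESeq2 and 8 without the low-count filter, both of which also tested Camp and Ngp, and 7 under the others. In hearts it was 0 in the 6 such fits and 1 with DESeq2, in lungs 0 throughout. For lung against heart it was 10 in all fits and for the interaction 0 in all. Directions turned for genes that passed no test. In peritoneal cells Mmp8 was −0.10 with limma-voom, −0.14 in the deeper libraries (above 80000000 counts) and −0.017 with depth class as a term (−0.23 to 0.29 without each library). Lung Wfdc21 was 4.36e-05 without the low-count filter, 0.076 with limma-voom and 0.0072 with both organs in one fit; limma-voom gave 0.10 for S100a9 and 0.35 for Retnlg, and the replicate block 8.8e-05 for Retnlg. Without each lung the ranges were −0.20 to 0.33 for S100a8, −0.21 to 0.17 for S100a9, −0.72 to 0.34 for Ngp, −0.019 to 0.96 for Mmp8, −0.29 to 0.14 for Retnlg, −0.44 to 0.29 for Wfdc21 and −0.19 to 0.74 for Slpi. In the interaction, Camp ranged from −0.26 to 0.94 and Stfa2l1 from −0.021 to 1.55. The cause was not tested. Over all genes, hearts had 287 calls with DESeq2, 3 without the filter, 3 with limma-voom and 5 without vehicle replicate 2; lungs had 5 with DESeq2 and 7 with limma-voom; the interaction had 14 with DESeq2 and 2 without the filter; and peritoneal cells had 4244 in the shallower libraries. The replicate block changed no call of the 10 genes. Depth was lowest in lungs, and its part in the absence of calls there was not tested. In simulated lung counts edgeR recovered 18.5% of planted log2 changes of 2, so a gene not called in lungs may still have changed.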
